A study of Mus musculus with 27 samples.

Results

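Day 3 chondroblasts were compared with day 1 chondroprogenitors, both grown from mouse limb bud mesenchymal cells in culture. The comparison takes RNA samples 3D1, 3D3 and 3D4 against 1D1, 1D3 and 1D4, which are 6 of the 9 RNA samples of the study and 18 of its 27 arrays, across every non-control probe set. It covers the step in which a progenitor becomes a cell that makes cartilage matrix.

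Limb cartilage begins as loose mesenchyme that condenses, switches on the transcription factor Sox9 and then secretes a matrix of type II, IX and XI collagen, aggrecan and its linkers. Making this matrix loads the secretory pathway, because collagen chains have to be hydroxylated, folded and trimmed, and because proteoglycan core proteins carry long sulphated sugar chains. Small leucine-rich proteoglycans, fibulins and elastic proteins belong to other connective tissues as well and are also made at the edge of cartilage.

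Cells were taken from the subridge region, the mesenchyme beneath the distal edge of the limb bud. They were left to differentiate in vitro and harvested at day 1 or day 3. Total RNA was prepared with RNeasy, labelled with biotin and hybridised to Affymetrix mouse arrays of the types A, B and C. The third group of the study, multipotential mesenchymal cells that carry no day in their labels, entered the fit so that the 3 groups shared 1 estimate of the spread. The labels give no strain or genotype and name no added agent for either day. They give a purity of 90-95% for every group and name fibroblasts as the contaminating cell type, and they leave unstated whether the samples of a group are separate cultures or animals. P-values here measure no more than the spread among these samples, and part or all of it may be technical. In samples of whole cultures, fewer cells of a type and less RNA per cell cannot be told apart.

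Signals are MAS5 intensities, 1 per probe set and array, each array rescaled here to a trimmed mean of 500. Values of single samples are given in the order of replicates 1, 3 and 4. Of 36701 probe sets, 23545 had a mean signal of at least 200 in 1 or more groups and were tested with limma on log2 of the signal plus 50. At a Benjamini-Hochberg adjusted p under 0.05, 380 differed between the days (1.61% of those tested), 266 higher and 114 lower at day 3, and 2549 had an unadjusted p under 0.05. Represented by 1 probe set each, 206 of 12214 genes rose (1.69%) and 77 fell (0.63%), and the median log2 difference over all genes was -0.05. Of the genes that rose, 52 had a day 1 mean below 200, and of those that fell, 5 had such a day 3 mean. Their log2 differences depend on the added 50. The mean log2 level was higher at day 3 in 5528 of the 12214 genes, which belongs beside the counts of higher and lower members below. A count of 0 or 1 call does not set a list below apart from all genes. The 3 samples of one day lay wholly above or below those of the other for 4369 probe sets (18.6%), all 380 among them. Omitting any 1 of the 6 samples left 167 to 277 probe sets, and the 5 samples other than day 3 replicate 4 each moved the count by over 1.5 times (omitting day 1 replicate 1, 3 or 4 gave 189, 190 or 233, and omitting day 3 replicate 1 or 3 gave 167 or 181). In all 6 of these fits 82 of the genes that rose and 18 of those that fell kept their call. A fit of the 6 samples alone that blocked on replicate number (the replicate block) gave larger counts. In it 498 genes rose (4.08%) and 313 fell (2.56%), and 0 of the calls were lost. The same block on all 9 samples gave smaller counts, with 258 probe sets in all, 137 genes that rose and 45 that fell, and 106 genes lost their call. The 2 block fits thus moved the counts in opposite directions, and below "the replicate block" is the fit of 6 samples. On 9 samples the count of rises was 4 for collagen processing (11 without a block), 3 for hypoxia and glycolysis (6), 3 for the ER and Golgi (5), 3 for matrix proteases and inhibitors (5) and 2 for BMP, GDF and TGF-beta signalling (4), and that of falls was 0 for the cell cycle (3), 3 for Wnt signalling (5) and 3 for BMP, GDF and TGF-beta signalling (5). Chondrogenic transcription factors had 1 rise and 1 fall (2 and 2). Rises numbered 5 for the actin cytoskeleton and smooth muscle (6), 3 for integrins and matrix receptors (3) and 3 for chaperones (3). They numbered 2 for growth arrest genes (3), 5 for annexins and S100 partners (5) and 7 for cartilage proteoglycans (8). Insulin-like growth factors and imprinted genes had 4 rises and 2 falls (4 and 2), and 0 erythroid markers fell (0). Vcan, Prelp, Chpf, Chst12, Sec23a and Sox6, which below pass with the replicate block and not without it, did not pass with the block on 9 samples (limma adjusted p of 0.132 to 0.205).

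**Figure D1:**
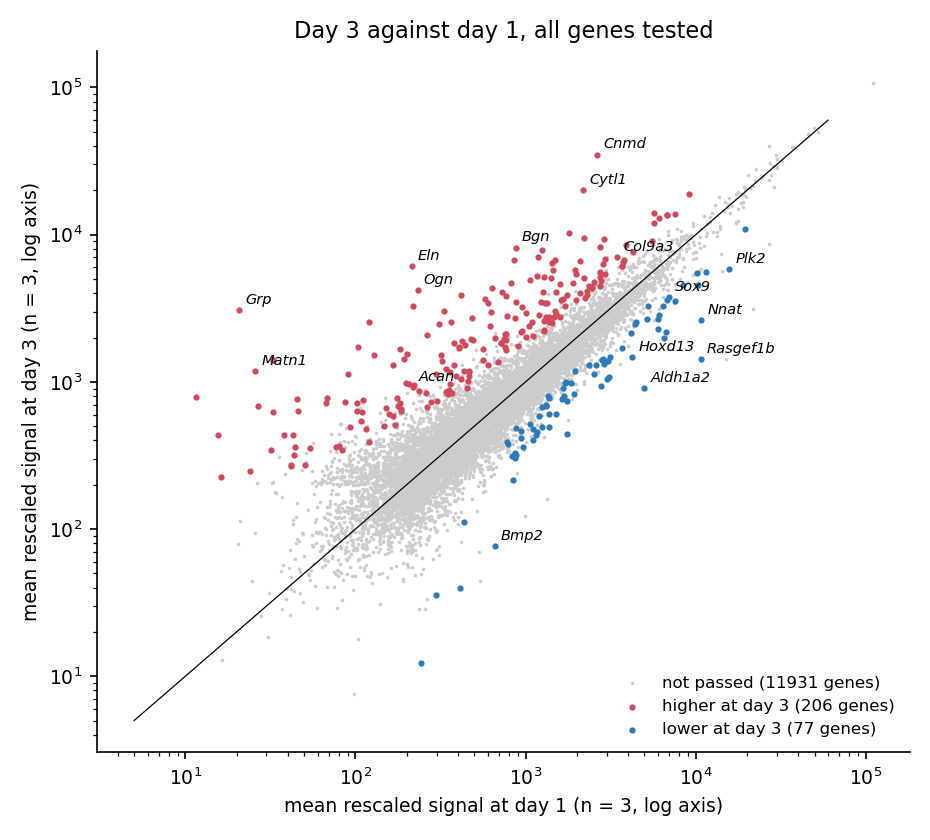
Mean rescaled signal of each gene at day 3 against day 1, with 3 samples per group and both axes on a log scale. Red points are the 206 genes that rose, blue points the 77 that fell, grey points the genes that did not pass, and the line marks equal signals. Red points lie above the line and blue points below it.

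Replicate 4 of each day had a high signal from the 18S control (33263.7 at day 1 and 19945.5 at day 3, against 1623.3 to 4095.4 in the other 4 samples). Without both of these samples 157 probe sets passed. The rises in the gene lists described below were then 3 of 18 for cartilage proteoglycans and linkers (8 with all samples), 1 of 6 for cartilage collagens (3), 4 of 8 for small leucine-rich proteoglycans (5), 5 of 18 for other collagens (5), 4 of 25 for collagen processing (11) and 2 of 64 for the ER and Golgi (5). They were 2 of 27 for matrix proteases and inhibitors (5), 1 of 35 for hypoxia and glycolysis (6), 1 of 51 for BMP, GDF and TGF-beta signalling (4) and 0 of 24 for chondrogenic transcription factors (2). The falls were 0 of 44 for Wnt signalling (5 with all samples), 0 of 24 for chondrogenic transcription factors (2) and 0 of 83 for the cell cycle (3). For Hox genes 1 of 24 fell (2), and for BMP, GDF and TGF-beta signalling 3 of 51 fell (5). Exact 2-sided permutation tests, which cannot fall below p = 0.1 with 3 against 3, gave 0.9 for the 18S signal and 0.2 for the actin 3' over 5' ratio (1.10 ± 0.0250 at day 1 and 1.19 ± 0.0996 at day 3, SD, n = 3). On array type B all day 1 arrays were scanned in one batch and all day 3 arrays in another, so that batch and day cannot be told apart there. Of the genes described below, Sox9, Aspn, Col8a2, Col16a1, Fbln5, Pcolce2, P3h1, Sec24d, Creb3l2, Chac1, Chst15, Chst12, Cspg4, Cd44, Gdf11, Runx1, Slc16a3, Ehd2, Cav2, Moxd1 and Lnpk are represented on type B. On type C all 6 arrays shared 1 batch. Type A had 1 batch with 2 day 1 and 3 day 3 samples. All 195 called genes of that type kept their sign there, which was fixed beforehand, since no called probe set overlapped between the days. The median ratio of the difference within the batch to that over all samples was 1.01. As that batch holds most of the samples that made the calls, neither value can test for an effect of batch. With scan batch as a block 278 probe sets passed, 257 of them among the 380. Of the 278, 165 were on type A, 31 on type C and 82 on type B, where a random block was used that cannot separate batch from day. Of the called genes described below, Dcn, P4ha2, Sec31a, Dad1, Atf5, Acvr2b, Gas1, Sox9, Hoxd12, Mcm7, Cdt1, Pold1, Cdkn1a, Eng, Krt19, Matn4, Crabp2, Hes1, Sfrp2, Cav2, Cavin3, Dnmt3a, Cbx2, Cbx6 and Myzap did not pass in that fit (limma adjusted p of 0.0513 for Acvr2b to 0.135 for Krt19).

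In the lists, here and below, measured genes are those past the filter. Of 18 measured genes for cartilage proteoglycans, their linkers and secreted regulators, from a list of 25, 8 rose and 0 fell. Their median log2 difference was 1.29, against -0.05 over all genes. Cnmd encodes chondromodulin, a membrane glycoprotein of cartilage whose cleaved part inhibits blood vessel growth. Its signal was 2895.9, 3459.8 and 1527.6 at day 1 and 39296.8, 42326.7 and 23473.6 at day 3. Every day 3 sample lay far above every day 1 sample, with replicate 4 the lowest on both days. The ratio of the means was 13.3 (log2 difference 3.74 ± 0.40, SE, limma adjusted p = 8.36e-05). In mesenchymal cells the mean had been 151.5, below the filter.

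Cytl1, a small cytokine-like protein secreted by cartilage cells, had the same shape. It gave 2445.9, 2674.9 and 1379.1 at day 1 and 22171.7, 27234.5 and 10659.8 at day 3. The groups did not overlap, replicate 4 was again the lowest on both days, and the ratio of the means was 9.24 (3.13 ± 0.39, limma adjusted p = 0.000411). A weaker probe set of Cytl1 differed by 1.46 without passing. Matn1 encodes matrilin-1, an adaptor between collagen fibrils and proteoglycans. It was near background at day 1 (10.9, 20 and 46.3) and read 1377.3, 829.6 and 1334.8 at day 3. No fold is given for a gene with a group mean below 200, here or elsewhere, and the log2 difference of such a gene, here 4.02 ± 0.34, depends on the added constant. Matn4, another matrilin gene, was already high at day 1 (6762.9, 4859.8 and 5555.9) and reached 13757.8, 9836.3 and 18352.7 at day 3, a ratio of 2.44. Its limma adjusted p of 0.0289 exceeded the threshold without day 1 replicates 1, 3 or 4 or day 3 replicates 1 or 4 (up to 0.139).

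Comp, a cartilage protein that binds several collagens, was at 242.0, 156.0 and 150.7 at day 1 and at 1994.2, 1434.2 and 1570.5 at day 3 (log2 difference 2.89 ± 0.44, limma adjusted p = 0.00243). Mia, a small protein secreted by chondrocytes, went from 709.9, 487.6 and 527.2 to 4000.7, 3255.3 and 3659.6. Its day 3 samples lay close together, and the ratio of the means was 6.33 (2.57 ± 0.41, limma adjusted p = 0.00691). Acan encodes aggrecan, the large core protein whose sugar chains draw water into cartilage. It rose from 264.5, 196.2 and 193.0 to 873.2, 681.0 and 1206.2, a ratio of 4.22 (1.83 ± 0.26, limma adjusted p = 0.00355). The gene of the link protein that ties aggrecan to hyaluronan, Hapln1, was weak on both days, with means of 41.7 and 272.8. Its limma adjusted p of 0.0410 was lost whichever of the 6 samples was left out (0.0539 to 0.184). Vcan, which encodes the proteoglycan versican, was lower in each day 3 sample (349.0, 671.4 and 269.8, against 954.5, 912.8 and 1372.9). It did not pass (-1.30 ± 0.40, limma adjusted p = 0.174), but did so with the replicate block (limma adjusted p = 0.0214). In that fit 10 genes of this list rose and 2 fell. 

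Promoter windows of 4 of these genes are shown, since they rose together from different starting levels. Each is the RefSeq sequence on GRCm38.p6 from 250 bases before to 50 bases after the gene's start, read 5′ to 3′ on the gene's strand. Capitals mark GGGCGG on either strand, the letters of a GC box.
Matn1: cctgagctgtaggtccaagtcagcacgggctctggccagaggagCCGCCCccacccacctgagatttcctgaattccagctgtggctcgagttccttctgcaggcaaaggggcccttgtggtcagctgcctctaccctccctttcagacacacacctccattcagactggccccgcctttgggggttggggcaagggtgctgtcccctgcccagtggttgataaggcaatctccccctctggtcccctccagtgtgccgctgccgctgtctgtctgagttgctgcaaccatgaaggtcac
Cnmd: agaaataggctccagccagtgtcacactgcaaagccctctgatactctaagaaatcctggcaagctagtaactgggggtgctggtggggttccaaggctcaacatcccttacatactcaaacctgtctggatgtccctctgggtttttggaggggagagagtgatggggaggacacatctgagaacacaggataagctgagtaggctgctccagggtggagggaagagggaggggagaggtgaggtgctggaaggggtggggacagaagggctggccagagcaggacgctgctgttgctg
Cytl1: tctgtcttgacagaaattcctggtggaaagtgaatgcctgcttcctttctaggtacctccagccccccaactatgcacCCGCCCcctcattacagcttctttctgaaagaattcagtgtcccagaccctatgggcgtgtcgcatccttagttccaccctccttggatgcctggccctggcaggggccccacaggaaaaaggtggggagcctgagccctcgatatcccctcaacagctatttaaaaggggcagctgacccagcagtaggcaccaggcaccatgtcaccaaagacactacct
Acan: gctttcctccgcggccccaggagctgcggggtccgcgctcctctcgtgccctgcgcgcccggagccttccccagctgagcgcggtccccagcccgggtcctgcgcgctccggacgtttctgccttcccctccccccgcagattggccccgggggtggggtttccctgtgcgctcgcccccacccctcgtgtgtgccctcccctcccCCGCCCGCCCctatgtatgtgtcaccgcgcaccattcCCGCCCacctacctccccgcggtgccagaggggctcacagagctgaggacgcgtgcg
These windows lie at chr4:130944135-130944434 (Matn1, + strand), chr14:79662134-79662433 (Cnmd, - strand), chr5:37735269-37735568 (Cytl1, + strand) and chr7:79052976-79053275 (Acan, + strand). GGGCGG occurred 1 time in Matn1 and in Cytl1 and 3 times in Acan, with 2 of the matches in Acan overlapping, and was not among the letters of the Cnmd window. It was in 65.5% of the 165 windows of genes that rose, 62.2% of the 9793 windows of tested genes and 35.9% of all 27025 windows. TATAAA was in 11.5%, 7.67% and 14.2% of these sets, and AACAAT, the core letters bound by Sox proteins, in 6.06%, 6.2% and 10.9%. All 4 windows lacked TATAAA and AACAAT on both strands. The GC content was 61.3% for Matn1, 56.0% for Cnmd, 55.0% for Cytl1 and 74.0% for Acan, against a median of 60.7% over tested genes.

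The collagens of cartilage gave a less even picture. Of 6 cartilage collagen genes measured, 3 rose and all 6 were higher at day 3 (median 0.94). Their summed signal was 2108.9 to 3045.6 in mesenchymal cells, 13648.7 to 15531.7 at day 1 and 20458.7 to 31902.5 at day 3. At day 1 it was thus already far above that of mesenchymal cells. Col11a1 and Col11a2 encode chains of type XI collagen, which forms the core of the thin cartilage fibril. Col11a1 read 841.3, 645.6 and 691.9 at day 1 and 2986.0, 2569.1 and 6639.3 at day 3, where replicate 4 was far above the others. Col11a2 read 187.9, 77.9 and 353.4 at day 1 and 1063.7, 738.9 and 1111.7 at day 3. Both had a limma adjusted p under 0.05 (0.0255 and 0.0208). Col11a1 kept its call only without day 3 replicate 3 and Col11a2 only without day 1 replicate 4, with values of up to 0.106 and 0.109 in the other fits.

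Col9a3, a chain of type IX collagen on the fibril surface, went from 3662.2, 3117.7 and 3544.1 to 6753.3, 5959.0 and 8492.2. The ratio was 2.05 (1.02 ± 0.17, limma adjusted p = 0.0102, 0.0643 without day 1 replicate 3). The partner chain Col9a1 overlapped between the days (7793.1, 6739.1 and 5277.7, against 7422.9, 6615.1 and 9973.0), with a log2 difference of 0.27 ± 0.20. The list's count of 3 became 0 on omitting day 1 replicate 3, 1 on omitting day 1 replicate 1, day 3 replicate 1 or day 3 replicate 4, and 2 on omitting either of the others. The probe set of Col2a1, the main cartilage collagen and a defining marker of the labelled cell type, stayed below the filter on both days (81.3, 72.8 and 147.6, then 14.5, 74.6 and 22), so it gave no check of the label. Sox5 and Col10a1 were also below it.

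Small leucine-rich proteoglycans, which coat collagen fibrils, had the highest median of the lists, 1.95 over 8 genes measured, of which 5 rose and 0 fell. Ogn, osteoglycin, read 220.2, 219.8 and 256.0 at day 1 and 4409.0, 3912.6 and 4341.8 at day 3. The samples of each day lay close together and the ratio was 18.2 (3.92 ± 0.20, limma adjusted p = 1.53e-06). A second probe set rose by 4.40. Bgn, biglycan, went from 865.5, 988.6 and 767.1 to 6760.4, 8628.1 and 9146.4, a ratio of 9.36 (3.15 ± 0.17, limma adjusted p = 1.88e-06), and both of its other probe sets rose too (1.22 and 4.44).

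Aspn, asporin, was near background at day 1 (9.6, 12.3 and 12.8) and read 800.4, 772.0 and 782.4 at day 3. Lum, lumican, read 98.2, 130.9 and 101.0 and then 772.0, 611.7 and 889.9. In neither gene did the groups overlap, and the log2 differences were 3.76 ± 0.39 and 2.33 ± 0.25. Dcn, decorin, rose by 1.58 ± 0.30, with a limma adjusted p of 0.0197 that was lost whichever sample was left out (0.0515 to 0.121). Prelp did not pass on its main probe set (1.58 ± 0.49, limma adjusted p = 0.157), and did so with the replicate block (0.0326). The list's summed signal was 2629.1 to 2875.0 at day 1 and 15995.6 to 18152.2 at day 3.

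**Figure D2:**
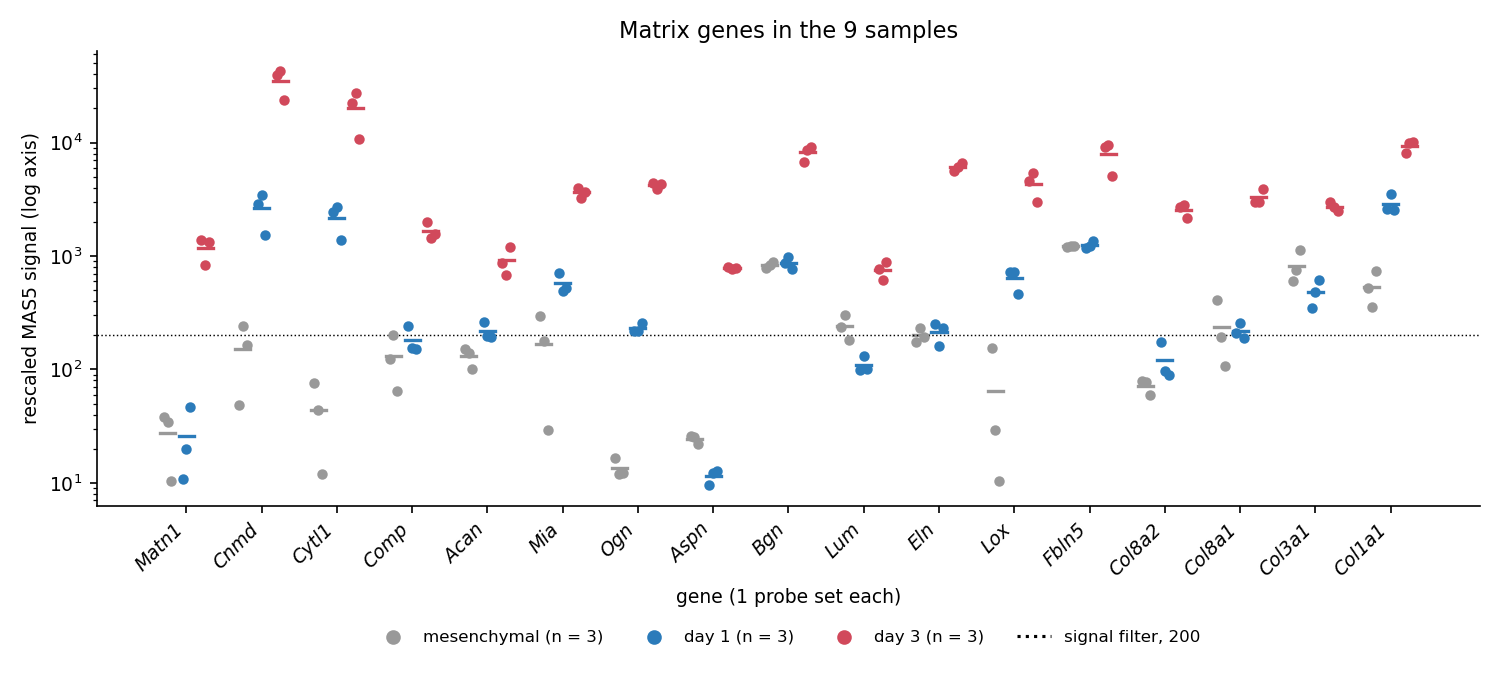
Rescaled MAS5 signal (log axis) of 17 matrix genes in the 9 samples, with 1 point per sample and a bar at the group mean. Day 3 points lie above day 1 points for each gene shown, and the dotted line marks the filter at 200.

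Of 18 fibrillar and other collagens, 5 rose and 0 fell, with a median of 0.92. Col8a1 and Col8a2 encode the chains of type VIII collagen, a short network-forming collagen. Col8a1 went from 208.8, 254.0 and 190.9 to 3002.8, 2993.4 and 3888.9, a ratio of 15.1 (3.64 ± 0.32, limma adjusted p = 8.36e-05). Col8a2, on array type B, went from 175.2, 97.1 and 88.9 to 2693.8, 2809.6 and 2156.0 (3.96 ± 0.32). Both chains of this collagen thus rose, each without overlap. Col3a1, the type III collagen gene of soft connective tissue, rose 5.64-fold (2.41 ± 0.25, limma adjusted p = 0.000305). Col1a1 rose 3.24-fold, from 2552.5 to 3530.5 at day 1 to 8058.4 to 10179.7 at day 3 (1.69 ± 0.23). Its partner in type I collagen, Col1a2, did not pass on the probe set that represents it (-0.18), whereas the other one rose by 2.21 ± 0.19 (limma adjusted p = 8.31e-05), so the 2 probe sets of that gene disagree. Col16a1, a collagen that associates with fibrils, rose 4.26-fold. With the replicate block 10 of the 18 rose.

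Elastic fibre genes included the steepest rise among the matrix genes with a fold. Eln, elastin, read 251.4, 162.2 and 230.2 at day 1 and 5606.8, 6135.3 and 6548.8 at day 3. All day 3 samples stood far above day 1, and the ratio was 28.4 (4.55 ± 0.20, limma adjusted p = 4.65e-07). Lox, the enzyme that cross-links elastin and collagen, went from 724.6, 719.9 and 458.3 to 4566.3, 5424.6 and 3015.6, a ratio of 6.84 (2.67 ± 0.39, limma adjusted p = 0.00455). Fbln5, a fibulin needed to assemble elastic fibres, was at 1171.6, 1222.2 and 1366.9 at day 1 and at 9222.8, 9491.6 and 5039.1 at day 3, where replicate 4 was the lowest. Fbln2, another fibulin, rose 4.01-fold. Of 17 genes in this list, 6 rose and 0 fell (median 0.50). Ltbp4 and Mfap4 had the smallest rises among the 6. Mfap4 lost its call without day 1 replicate 1 or day 3 replicate 3, and Ltbp4 without any of the 6 samples. The count was 4 on omitting day 1 replicate 1 or day 3 replicate 3, and 5 on omitting any other sample.

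Genes for enzymes and chaperones that process collagen rose in 11 of 25 measured and fell in 0, and 21 were higher at day 3 (median 0.79). P4ha1, the catalytic subunit of a prolyl hydroxylase that stabilises the triple helix, went from 387.5, 328.7 and 235.8 to 1756.2, 1644.1 and 1135.9, a ratio of 4.77 (2.09 ± 0.33, limma adjusted p = 0.00637). Pcolce and Pcolce2 speed up removal of the procollagen tail, and rose 2.49-fold and 2.89-fold. These 3 kept their calls whichever sample was left out. Serpinh1, the collagen chaperone, rose by 1.00 ± 0.20 on the log2 scale from an already high 5840.2 to 7958.7, and kept its call only without day 1 replicate 1. P4ha2 and P3h1, which hydroxylate proline, and Crtap, a partner protein of P3h1, rose by 1.42, 1.13 and 0.75 on the log2 scale. P4ha2 and Crtap lost their calls whichever sample was left out, and P3h1 without day 1 replicate 3 or day 3 replicates 1 or 3. The list's count of 11 became 5, 4 or 5 on omitting day 1 replicate 1, 3 or 4, and 3, 3 or 6 on omitting day 3 replicate 1, 3 or 4. In the replicate block fit it was 16.

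The general secretory machinery was taken as a separate list. Of 64 ER and Golgi genes, 52 were higher at day 3 (5528 of 12214 over all genes) with a median of 0.34, and 5 rose. Kdelr3, a receptor that returns escaped ER proteins, rose 3.89-fold (677.9, 565.5 and 606.8, then 2774.6, 2402.0 and 2013.8, limma adjusted p = 0.000360), and its other probe set by 1.75. Sec24d and Sec31a, coat proteins of the vesicles that leave the ER, rose by 1.32 ± 0.25 and 0.80 ± 0.17. Tmed3, a cargo receptor, rose by 1.29, and Dad1, a subunit of the enzyme that adds N-linked sugars, by 0.73. Kdelr3 alone kept its call whichever sample was left out. On omitting a sample the count was 2 (day 1 replicate 1), 3 (day 1 replicate 3 or 4, or day 3 replicate 4) or 1 (day 3 replicate 1 or 3). The replicate block raised it to 18, and Sec23a, another coat protein, was among them (0.54 ± 0.14, limma adjusted p = 0.0837 without and 0.0168 with the block). Creb3l2, a transcription factor for secretory genes in chondrocytes, was high on both days (15355.0 to 16166.1 and 16469.1 to 20265.4) and did not pass (0.16 ± 0.26), nor did its other probe sets (-0.08 and 0.15). Among 33 chaperone and unfolded protein response genes 3 rose (median 0.39). They were Chac1 (ratio 3.60), Trib3 (1.62 ± 0.25) and Atf5 (ratio 2.21), which respond to ATF4 in stressed cells. Atf5 lost its call without day 1 replicate 1 or day 3 replicates 1 or 3. The replicate block gave 10 rises.

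Enzymes that build and sulphate the sugar chains were listed apart from the core proteins. Of 38 genes of chondroitin, heparan and hyaluronan synthesis measured from 46 listed, 0 rose and 1 fell in limma, with 7 at an unadjusted p under 0.05 and a median of 0.08. Over all genes 1.69% rose and 0.63% fell. The gene that fell was Chst15, which adds a second sulphate to chondroitin sulphate. It read 3409.1, 2340.5 and 3477.9 at day 1 and 1089.1, 943.7 and 1225.4 at day 3, without overlap (-1.45 ± 0.21, limma adjusted p = 0.00243), and 1 of its 3 other probe sets fell as well. Papss2, which makes the sulphate donor, overlapped between the days (0.23 ± 0.29), and Chst11, a chondroitin sulphotransferase, differed by -0.54 ± 0.41. Chpf, a subunit of the chondroitin polymerase, gave 0.88 ± 0.22 (limma adjusted p = 0.0810) and Chst12, another sulphotransferase, 1.20 ± 0.46 (limma adjusted p = 0.309). Both passed with the replicate block (0.0111 and 0.0449). The summed signal of the 38 genes was 35989.3 to 43098.8 at day 1 and 38432.8 to 43332.7 at day 3.

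**Figure D3:**
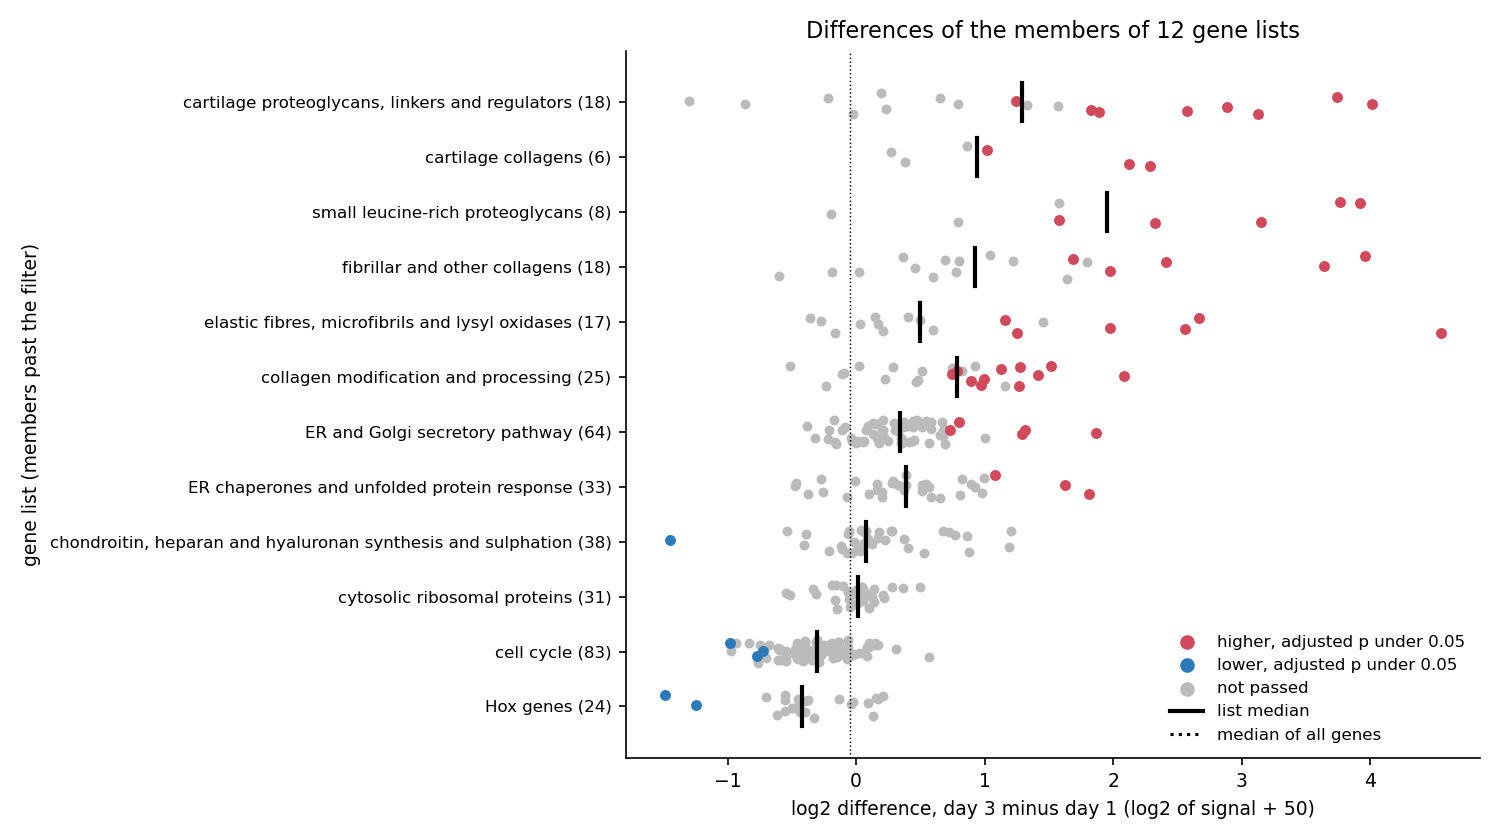
Log2 difference, day 3 minus day 1, of each measured member of 12 gene lists. Red points rose, blue points fell, grey points did not pass, black bars are list medians and the dotted line is the median of all genes, -0.05. Matrix lists lie to the right, and ribosomal protein genes lie around 0.

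A list of matricellular proteins, which sit in the matrix and signal to cells, and of cell adhesion genes had 29 measured members, of which 8 rose and 0 fell (median 0.60). Ccn3 went from 32.0, 14.1 and 51.8 to 1596.2, 1585.2 and 1042.0 (4.14 ± 0.32, limma adjusted p = 3.49e-05). Ccn2, a relative that acts downstream of TGF-beta, rose from 1346.4, 1176.8 and 1014.3 to 7744.4, 7613.5 and 5646.2, a ratio of 5.94. Postn, periostin, rose 9.12-fold and Tnc, tenascin C, 4.51-fold, and these 4 genes kept their calls whichever sample was left out. Omitting day 3 replicate 1 or 3 lowered the count to 5 or 4, and it was 6 to 8 on omitting any other sample. Of 29 integrins and matrix receptors, 3 rose, led by the membrane proteoglycan gene Cspg4 (100.5, 92.1 and 78.2, then 833.2, 1205.4 and 1353.4). Cd44, a hyaluronan receptor, rose by 2.76 ± 0.47 but lost its call without day 3 replicates 1 or 3 (limma adjusted p of up to 0.0530), when the count of this list was 1. It was 10 with the replicate block.

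Genes of the actin cytoskeleton and of smooth muscle rose in 6 of 40 measured (median 0.40, 34 higher), and 16 rose with the replicate block. Acta2, smooth muscle actin, went from 1806.9, 2123.6 and 1476.8 to 9001.9, 10903.5 and 10822.2, a ratio of 5.68 (2.48 ± 0.23, limma adjusted p = 0.000150), whereas its other probe set differed by 0.98 without passing. Cnn1, calponin, rose 7.03-fold, and Tagln, transgelin, 2.22-fold. Matrix proteases and their inhibitors rose in 5 of 27 (median 0.62), or 12 with the replicate block. Htra1, a secreted serine protease, rose by 2.61 ± 0.39 from a mean below the filter, with its other probe set at 0.01. Prss23, a secreted protease, rose by 2.03 ± 0.27. These 2 kept their calls in all 6 fits, and the count fell to 2 on omitting day 1 replicate 4 or day 3 replicate 1 or 3, and to 3 on omitting day 1 replicate 3.

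Secreted growth factors and binding proteins supplied further large rises. Grp, a peptide hormone gene, was near background at day 1 (18, 21.5 and 22.3) and read 4632.9, 2040.4 and 2575.7 at day 3. Its log2 difference, which depends on the added constant, was 5.39 ± 0.48 (limma adjusted p = 2.59e-05). Igfbp2 and Igfbp3 encode proteins that bind insulin-like growth factors. Igfbp2 rose 5.72-fold, from 555.0 to 644.1 at day 1 to 2658.9 to 4522.1 at day 3, although its other probe set was lower at day 3 without passing (-0.50). Igfbp3 went from 42.1, 47.0 and 39.6 to 445.2, 427.9 and 437.3 (2.39 ± 0.30, limma adjusted p = 0.00150). Dlk1, an imprinted gene for a membrane protein related to Notch ligands, rose 5.77-fold (725.0, 938.5 and 794.6, then 5101.6, 5345.6 and 3728.1). Igf2, the growth factor itself, overlapped between the days (0.42 ± 0.31). Of 31 genes in the list of insulin-like growth factors and imprinted growth genes, 4 rose and 2 fell, and each kept its call in all 6 fits. The replicate block gave 8 rises and 5 falls.

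The largest fall was that of Rasgef1b, which encodes an exchange factor for a Ras-family protein. It read 10749.4, 13279.4 and 8143.2 at day 1 and 1313.3, 2489.0 and 483.7 at day 3, a ratio of 7.51 in favour of day 1 (-3.11 ± 0.42, limma adjusted p = 0.000847). The day 3 samples were widely spread but lay below all day 1 samples. The other probe set of Rasgef1b differed by -0.25 without passing. Aldh1a2 makes retinoic acid, a signal that holds back cartilage differentiation in limb cultures. It fell from 5803.0, 5342.0 and 3835.0 to 1022.0, 825.4 and 887.6, a ratio of 5.48 (-2.37 ± 0.21, limma adjusted p = 8.36e-05), against a mean of 291.4 in mesenchymal cells. Of its 2 other probe sets 1 fell (-1.60) and 1 did not pass (-0.37). Of 16 retinoid genes 1 rose and 2 fell. Crabp2, which carries retinoic acid in the cell, fell by 1.54 ± 0.30, and its other probe set differed by 0.44 without passing. The call of Crabp2 was lost on omitting day 1 replicate 1 or 3 or day 3 replicate 1 or 4. The rise of Rbp4, a retinol carrier, lost its call without day 3 replicate 3. Nnat, neuronatin, an imprinted gene for a small ER membrane protein, read 7648.8, 14638.3 and 9895.5 at day 1 and 2869.9, 2251.6 and 2726.7 at day 3, a ratio of 4.10 (-1.97 ± 0.23). Phlda2, an imprinted gene that restrains placental growth, fell from 1675.1, 1988.0 and 1627.9 to 414.7, 480.6 and 431.5, a ratio of 3.99. In none of these genes did the days overlap.

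For contrast with the genes that rose, promoter windows of 2 that fell are shown, taken from RefSeq on GRCm38.p6 in the same way and with the same use of capitals.
Aldh1a2: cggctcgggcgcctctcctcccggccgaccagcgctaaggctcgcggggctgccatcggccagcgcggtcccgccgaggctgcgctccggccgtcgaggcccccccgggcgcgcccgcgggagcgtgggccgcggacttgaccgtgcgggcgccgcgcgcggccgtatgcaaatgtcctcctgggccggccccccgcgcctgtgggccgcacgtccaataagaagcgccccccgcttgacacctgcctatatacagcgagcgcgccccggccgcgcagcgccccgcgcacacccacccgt
Nnat: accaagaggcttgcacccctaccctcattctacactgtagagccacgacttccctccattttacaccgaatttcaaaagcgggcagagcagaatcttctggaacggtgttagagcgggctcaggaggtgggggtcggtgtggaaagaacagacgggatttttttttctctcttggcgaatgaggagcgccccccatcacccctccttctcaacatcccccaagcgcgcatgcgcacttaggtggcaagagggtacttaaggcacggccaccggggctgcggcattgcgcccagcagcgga
They lie at chr9:71215539-71215838 (Aldh1a2, + strand) and chr2:157559828-157560127 (Nnat, + strand), and none of the 6 motifs searched was found in either. GGGCGG was in 82.5% of the 63 windows of genes that fell, and their median GC content was 63.7%. These shares describe the windows and were not tested.

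**Figure D4:**
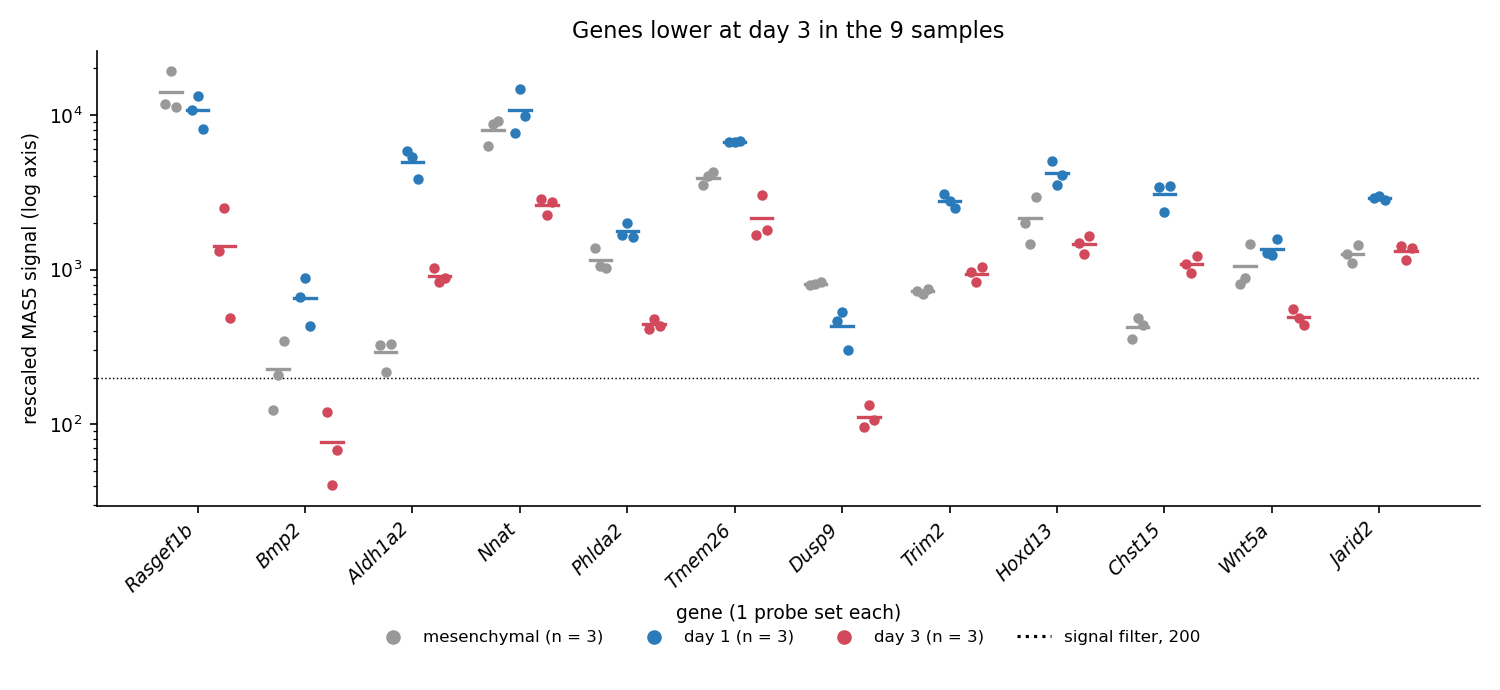
Rescaled MAS5 signal (log axis) of 12 genes that were lower at day 3, with 1 point per sample in the 9 samples and a bar at the group mean. Day 3 points lie below day 1 points for each gene shown, and the dotted line marks the filter at 200.

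Signalling genes moved in both directions. Bmp2, a bone morphogenetic protein, fell from 662.2, 884.9 and 430.1 to 120.9, 40.6 and 68.7 (-2.48 ± 0.38, limma adjusted p = 0.00541), and its stronger probe set, at a mean of 5639.7 at day 1, fell by 1.98. Tgfb3, a TGF-beta ligand, rose 2.57-fold (1422.5, 1380.2 and 1215.4, then 2918.9, 3636.2 and 3752.4, limma adjusted p = 0.00563). Gdf11, a ligand of the same family, fell 2.52-fold and Acvr2b, a receptor for such ligands, 2.03-fold. Gdf11 lost its call without day 1 replicates 1 or 3 or day 3 replicate 3, and Acvr2b without day 1 replicate 1 or day 3 replicates 1 or 3 (limma adjusted p of up to 0.0865 and 0.0677). Of 51 BMP, GDF and TGF-beta genes, 4 rose and 5 fell. With 1 sample omitted, the number that rose was 2 (day 1 replicate 1 or 3, or day 3 replicate 3), 1 (day 3 replicate 1) or 3 (replicate 4 of either day). The number that fell was then 1 (day 1 replicate 1), 2 (day 1 replicate 3, or day 3 replicate 1 or 3), 3 (day 3 replicate 4) or 5 (day 1 replicate 4). With the replicate block 7 rose and 9 fell.

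Wnt5a, a ligand of the distal limb, read 1273.0, 1236.6 and 1586.0 at day 1 and 553.6, 484.2 and 441.5 at day 3, a fall of 2.77-fold (-1.38 ± 0.23, limma adjusted p = 0.00886), and 2 of the 3 further probe sets of the gene fell. Dkk3, a secreted protein related to Wnt inhibitors, rose by 1.94 ± 0.23 on the log2 scale, and its other probe set by 1.96. These were the members of the Wnt list that kept their calls in all 6 fits. In all, 3 of 44 rose and 5 fell. Without replicate 4 of both days 2 rose and 0 fell, so that Wnt5a lost its call there. With 1 sample left out, the number that rose was 1 (day 3 replicate 3) or 2 (any other). The number that fell was then 1 (day 1 replicate 1 or 3), 3 (day 1 replicate 4) or 2 (any day 3 sample). Of 31 FGF and hedgehog genes only Gas1 rose in limma (0.82 ± 0.15), and it kept its call only without day 1 replicate 3 or day 3 replicate 4. The replicate block gave 3 rises and 3 falls.

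Transcription factors of chondrogenesis showed 2 rises and 2 falls among 24 measured (median 0.07), and 3 and 7 with the replicate block. Nfib, a nuclear factor I gene, rose 2.27-fold (1242.2, 770.7 and 1130.3, then 2708.0, 1884.5 and 2553.6), and all 5 of its other probe sets rose. Sox11, a Sox gene of progenitor cells, fell 2.14-fold (6171.7, 5109.8 and 7062.8, then 3353.7, 2210.6 and 2990.6), and all 3 of its other probe sets fell. Nfib lost its call without day 1 replicate 3 or day 3 replicates 1 or 4 (limma adjusted p of up to 0.101). Sox11 lost it without day 1 replicates 1 or 4 or day 3 replicate 3 (up to 0.103). Sox6, which acts with Sox9 on cartilage genes, was lower in all day 3 samples on both probe sets. The one that represents it did not pass (-0.98 ± 0.25, limma adjusted p = 0.0935, 0.0113 with the replicate block) and the brighter one fell by 1.22 ± 0.24 (limma adjusted p = 0.0175). The rise of Runx1 (1.95 ± 0.39) was lost whichever sample was left out. The fall of Sox9 (-0.87 ± 0.19) was lost without day 1 replicates 1 or 4 or day 3 replicates 1 or 3. None of the 4 other probe sets of Sox9 passed (-0.47, -0.31, -0.31 and 0.37). On omitting a sample, the number of rises in this list was 0 (day 1 replicate 3, or day 3 replicate 1 or 4) or 1 (the others), and that of falls was 0 (day 1 replicate 1 or 4, or day 3 replicate 3), 1 (day 3 replicate 1) or 2 (day 1 replicate 3 or day 3 replicate 4).

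Of 24 Hox genes, which pattern the limb along its axes, 2 fell and 0 rose, 5 were higher, and the median was -0.42. Hoxd13, which patterns the digits, read 5066.0, 3518.5 and 4084.6 at day 1 and 1485.3, 1263.3 and 1648.1 at day 3, a fall of 2.88-fold (-1.49 ± 0.23, limma adjusted p = 0.00653). Hoxd12, its neighbour, fell 2.63-fold (limma adjusted p = 0.0135) and lost its call without day 1 replicates 1 or 4 or day 3 replicates 1 or 3 (up to 0.0812). The count of falls in the list was then 1. Among 25 limb patterning factors 0 passed in limma, with 7 at an unadjusted p under 0.05 and a median of -0.23, and with the replicate block 1 rose and 2 fell. Prrx1, a marker of limb mesenchyme, overlapped between the days (-0.34 ± 0.26), and its other probe sets were at 0.20 and 0.47.

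Most cell cycle genes were slightly lower at day 3. Of 83 measured, 73 were lower and 10 higher (5528 of 12214 were higher over all genes), with a median of -0.31, and 3 fell. They were Mcm7, a subunit of the replication helicase (-0.98 ± 0.21), Cdt1, which licenses replication origins (-0.77 ± 0.15), and Pold1, a DNA polymerase subunit (-0.73 ± 0.15). The other probe sets of Cdt1 did not pass (-0.54 and 0.31). Each of the 3 genes lost its call whichever of the 6 samples was left out, so the count was 0 in all 6 fits, and it was 13 with the replicate block. The summed signal of the list was 106922.2 to 112418.4 at day 1 and 84383.2 to 90041.1 at day 3, with no overlap. Mki67, a marker of cycling cells, overlapped (607.0, 549.0 and 566.4, then 338.9, 616.8 and 452.3). Of 26 inhibitors and growth arrest genes, 3 rose. Cdkn2b, an inhibitor of cyclin D kinases, read 32.9, 5.6 and 8.4 and then 432.0, 523.2 and 351.2 (2.90 ± 0.37, limma adjusted p = 0.00155). Cdkn1a, which encodes p21, rose 3.64-fold and by 2.41 on its other probe set, though its limma adjusted p of 0.0203 kept its side of the threshold only without day 1 replicate 4. The count was 1 on omitting day 1 replicate 1 or day 3 replicate 1 or 3, 2 on omitting day 1 replicate 3 or 4, 3 on omitting day 3 replicate 4, and 9 with the replicate block.

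In limma 0 of 31 cytosolic ribosomal protein genes, 0 of 50 oxidative phosphorylation genes and 0 of 28 genes of cholesterol and fatty acid synthesis passed, without and with the replicate block. At an unadjusted p under 0.05 there were 0, 2 and 1, and the medians were 0.02, 0.03 and 0.01. Over all genes 1.69% rose and 0.63% fell without the block, so a count of 0 there does not set lists of these sizes apart. Of 35 hypoxia and glycolysis genes 6 rose, among them Ldha, lactate dehydrogenase (ratio 2.13), and Slc16a3, a lactate exporter (ratio 2.76). P4ha1 and P4ha2, collagen enzymes described above, are counted in this list as well, and P4ha1 alone kept its call in all 6 fits. On omitting a sample the count was 2 (day 1 replicate 1), 3 (day 1 replicate 3 or day 3 replicate 1), 1 (day 1 replicate 4 or day 3 replicate 3) or 4 (day 3 replicate 4). Of 11 hypertrophy and mineralisation genes Mgp, an inhibitor of mineralisation, rose 4.96-fold (804.9, 703.3 and 793.0, then 3498.6, 3797.6 and 4129.1), and the markers of later cartilage Pth1r and Ihh overlapped between the days (-0.24 and -0.56). Smaller counts came from the lists for Notch signalling (18 genes, Dlk1 rose and Hes1 fell), immediate early genes (22, Ier3 rose) and tendon and joint (14, Htra1 rose and Sfrp2 fell). Hes1, Ier3 and Sfrp2 did not keep their calls in all 6 fits.

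Markers of other cells were set beside these changes. Of 17 fibroblast markers, 7 rose and 0 fell (median 1.09), and their summed signal was 15165.2 to 16753.9 at day 1 and 35134.8 to 38753.9 at day 3. The 7 were Postn, Lox, Col3a1, Lum, Fbln2, Col1a1 and Dcn, which are also matrix genes of the lists above, so the label's contaminant and the matrix share their markers. The part of contaminating fibroblasts in the rises was not tested. Of 14 erythroid markers 0 passed in limma, with 7 at an unadjusted p under 0.05, and none was higher at day 3 (median -1.23). Their summed signal was 11212.1, 76071.9 and 123491.5 at day 1 and 8479.6, 21785.1 and 17956.1 at day 3, so that day 1 replicate 1 lay within the day 3 range. Without that sample 6 fell, as they did with the replicate block. The alpha globin gene Hba-a1 read 1755.6, 23579.0 and 39835.4 and then 1387.8, 4707.9 and 3337.6. The part of red cells in the falls was not tested. Of 13 skeletal muscle markers 0 passed in limma, with 2 at an unadjusted p under 0.05, and 2 rose with the replicate block. The lists for endothelium (20 genes, Eng), macrophages and leukocytes (16, Lyz2), ectoderm (18, Krt19), neural cells (15, Pmp22) and adipocytes (11, Cebpb) had 1 rise each and 0 falls. The shares over all genes were 1.69% and 0.63%. With the replicate block endothelium had 2 rises and 2 falls, macrophages and leukocytes 2 rises, and neural cells 1 rise and 1 fall. Of these, Cebpb alone kept its call in all 6 fits. Lyz2 was lost without day 3 replicate 1, and Pmp22 without day 3 replicates 1 or 3. Eng kept its call only without day 1 replicate 4 or day 3 replicate 4, and Krt19 only without day 3 replicate 4.

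**Figure D5:**
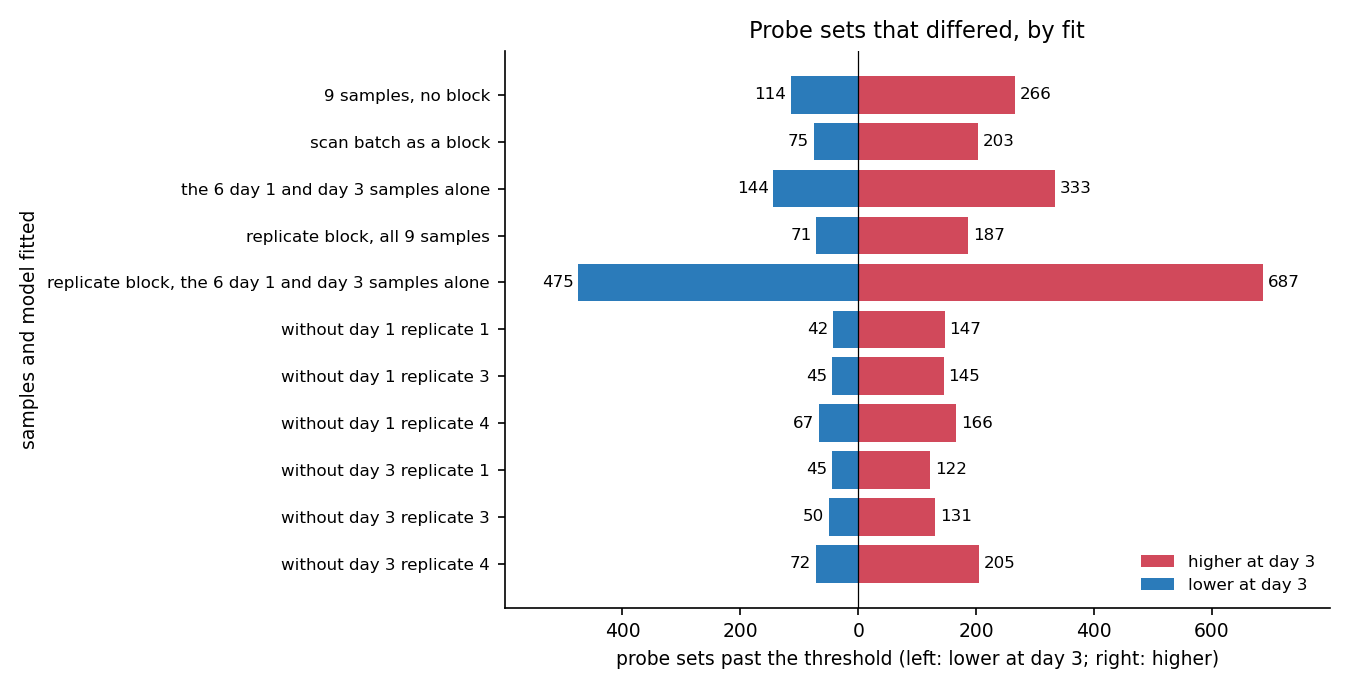
Number of probe sets that passed under 11 fits, with falls to the left and rises to the right of 0. The count ranged from 167 when day 3 replicate 1 was left out to 1162 with the replicate block on the 6 samples alone.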

How the data were processed

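Gene expression was measured on 27 Affymetrix mouse arrays of the types A, B and C, 1 of each type for 9 RNA samples. The authors deposited linear intensities made with MAS5, per the submitters' processing notes, with 1 value for each probe set. The MAS5 version is not given in the sources used here. Groups came from the labels, with replicate numbers 1, 3 and 4 from the titles, 3 samples per group.

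Rescaling gave every array a 2% trimmed mean of 500. Control probe sets (66 an array) and probe sets whose mean was below 200 in every group were omitted. Log2 of the signal plus 50 was fitted per array type in R 4.3.3 with limma 3.58.1 (lmFit, eBayes with a trend) on all 9 samples. P-values were adjusted by the Benjamini-Hochberg method over the 3 types together, at 0.05. Errors of log2 differences are limma's standard errors. The number of arrays limits the precision. A fold is the ratio of mean signals. The steps were tested on simulated data.

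Gene symbols came from the platform annotation, updated through the Entrez identifier. Of 36701 probe sets, 29131 had 1 symbol, 724 several and 6846 none. A gene is represented by 1 probe set, with type A preferred to B and B to C, and the highest mean deciding within a type. Reference order and promoters are those of RefSeq on GRCm38.p6.

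Genes were named by a rule: the 25 largest rises and 20 largest falls without overlap, up to 5 called members per list, and a fixed set of cartilage and secretion genes. Fewer are named than it allows, and genes named outside it, among them Mia, Matn4, Vcan, Chpf, Chst12, Prelp, Igf2, Col1a2 and Hba-a1, were chosen after their values were seen. The members and all gene lists were chosen with earlier results of these data known.

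The labels do not say what a replicate number stands for. Deviations from the group means correlated at 0.107, 0.126 and 0.251 for same-numbered samples of day 1 and day 3 over all probe sets. The other pairs gave -0.177 to 0.0813. The numbers were treated as pairs in the block fits. On types B and C some same-numbered pairs lay lower (0.0287 for replicate 3 on B, 0.0558 for replicate 1 on C). On B, day 1 replicate 1 with day 3 replicate 3 (0.150) lay above the same-numbered pairs of replicates 1 and 3 (0.104 and 0.0287). These correlations were computed with the counts of calls already known. They cannot establish pairing, because deviations from a group mean cancel out within the group, which pushes other pairs down when same-numbered ones are positive. Over all probe sets every negative value involved a replicate 4 sample, which had the high control signal described above. Between replicates 1 and 3 the other-numbered pairs gave 0.0613 and 0.0813. Whether the numbers mark pairs was not tested.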

Additional observations from a re-analysis of the deposited data

How the results depend on the processing

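The count of 380 probe sets (266 higher, 114 lower) was 326 to 397 with a pseudocount of 16 or 100, no filter, a filter at 400 or quantile normalization, 477 with the 6 samples alone, 260 (206 and 54) with no trend, and 279 with types A and C only. The replicate number as a block gave 1162 (687 and 475) on the 6 samples and 258 (187 and 71) on all 9. Scan batch as a block gave 278 (203 and 75), and array weights 1131 (683 and 448). Leaving out 1 sample gave 167 to 277 in all, 122 to 205 higher and 42 to 72 lower, and leaving out replicate 4 of both days 157 (123 and 34). Of 988 listed genes 115 passed, or 250 with the block on 6 samples, 84 with the block on 9, 91 with the scan batch block, 229 with array weights, 80 with no trend, 62 to 88 without 1 sample and 61 without both replicates 4. The cause of these shifts was not tested.

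Of 131 named genes 120 passed and 65 of them kept their call in all 6 fits that left out 1 sample. The replicate block on the 6 samples ended 0 of these calls and added 2, that on all 9 ended 21, the scan batch block 22 and no trend 27, and without both replicates 4 51 were lost. Among other probe sets of the named genes, 37 gave the same result, 43 were weaker, 1 was stronger and 9 turned in sign. Signs turned for other probe sets of Crabp2 (0.44), Sox9 (0.37), Igfbp2 (-0.50), Serpinf1 (-0.76), Tpm1 (-0.0771), Cdt1 (0.31), Prrx1 (0.47 and 0.20) and Creb3l2 (-0.0818), none of which passed. The sign of Col9a1 turned without both replicates 4 (-0.0482), where it did not pass either.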

Other observations

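Lists in this part were drawn up after the values had been seen, so their counts are descriptions. Genes of caveolae, the small flask-shaped pits of the cell membrane, rose in 5 of 11 measured and fell in 0. Cav1, the main coat protein, read 187.2, 238.8 and 174.1 at day 1 and 1644.1, 1719.0 and 1299.9 at day 3 (log2 difference 2.68 ± 0.21, limma adjusted p = 3.49e-05). Ehd2, which steadies the neck of the pit, rose by 3.15 ± 0.28 and Cavin1, which coats it, by 2.08 ± 0.28. These 3 kept their calls whichever of the 6 samples was left out, and Cav2 and Cavin3 lost theirs each time. Of 12 annexins and S100 partners, calcium-binding proteins of membranes, 5 rose. S100a6 went from 373.3, 492.4 and 394.7 to 3391.4, 4781.3 and 3421.9 (ratio 9.20), and Anxa1 and Anxa2 rose by 2.78 ± 0.31 and 1.15 ± 0.17. The count was 3 without day 3 replicate 1, 4 to 6 without any other sample, and 8 with the replicate block. Of 16 tetraspanins 5 rose, of which only Cd9 (ratio 3.12) kept its call in all 6 fits. On omitting a sample that count was 3 (day 1 replicate 1 or day 3 replicate 4), 2 (day 1 replicate 3 or 4, or day 3 replicate 3) or 1 (day 3 replicate 1).

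Of 26 genes of Polycomb complexes and DNA methylation, 4 fell and 1 rose. Jarid2, a cofactor of the complex that methylates histone H3, read 2897.0, 3005.3 and 2824.1 at day 1 and 1428.4, 1152.2 and 1378.0 at day 3 (-1.12 ± 0.16, limma adjusted p = 0.00341), and kept its call in all 6 fits. The DNA methyltransferase gene Dnmt3a (-1.15), Cbx2 (-1.38) and Mtf2 (-0.84) fell as well. On omitting a sample the count of falls was 2 (replicate 1 of either day), 1 (replicate 3 of either day) or 3 (replicate 4 of either day). Cbx6 rose by 0.96 and lost its call whichever sample was left out. Lmna, which encodes lamin A of the nuclear envelope, rose 3.93-fold (1556.5, 1448.5 and 1368.7, then 6196.2, 6204.0 and 4799.6, limma adjusted p = 0.000548).

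In the gene order of GRCm38.p6, 13 pairs of called genes were direct neighbours among protein-coding genes, 9 of them moving the same way. Stk32b, a kinase gene beside Cytl1 on chromosome 5, rose 4.27-fold (2495.5, 1931.4 and 2233.5, then 11374.3, 8657.2 and 8400.8). Beside Aldh1a2 on chromosome 9, Polr2m and Myzap fell by 1.19 and 2.14 on the log2 scale, in that order along the chromosome. Myzap kept its call only without day 1 replicate 4. Moxd1 and Ccn2, and Dcn and Lum, were pairs on chromosome 10 that rose. Of 10 measured genes of the HoxD cluster and its surroundings on chromosome 2, 10 were lower at day 3 (median -0.57) and 3 fell. They were Hoxd13, Hoxd12 and Lnpk (-1.38). Lnpk kept its call only without day 3 replicate 3, and the count was 1 without day 1 replicates 1 or 4 or day 3 replicate 1. Chance expectations for such pairs were not computed. As 206 called genes rose and 77 fell, many pairs would share a direction wherever they lay.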
